A study of Mus musculus with 8 samples.

Results

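The genes described here encode the kainate receptor subunits GluK1 to GluK5 (Grik1, Grik2, Grik3, Grik4 and Grik5) and the delta receptor subunit GluD1 (Grid1). They were chosen by name, and all 6 were found among the 22430 genes of the count table and passed the filter on low counts, as did 16730 genes in all. Poly(A) RNA had been sequenced from brain hemispheres of 8 male C57Bl/6JRj mice. Of these, 4 were young adults of 6 months (6m) and 4 were aged animals of 24 months (24m), with 1 library per animal. The labels name no transgene and no treatment. Each library came from a lysate of a whole hemisphere, so the values are averages over all regions and cell types, and females were not studied.

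Kainate receptors are cation channels opened by glutamate and built from several subunits. GluK1 to GluK3 bind kainate with lower affinity and can form a channel on their own, whereas GluK4 and GluK5 bind it with high affinity and need a subunit of the first group to reach the surface. They act on both sides of the synapse, where they tune transmitter release and carry slow postsynaptic currents. Delta receptors have the fold of the same family but are not opened by glutamate in the usual way. They hold synapses together by binding cerebellins, secreted proteins that bridge to presynaptic neurexins.

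The 6 genes share the stretch of coding sequence for the pore loop, which is shown because it separates the subunit groups and holds the codon at which Grik1 and Grik2 transcripts are known to be edited from glutamine to arginine. Each line gives 60 bases of the coding strand, 5′ to 3′, read from GRCm39, and the glutamine codon starting at base 54 is in capitals.
Grik1: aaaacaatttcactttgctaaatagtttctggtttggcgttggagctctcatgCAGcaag
Grik2: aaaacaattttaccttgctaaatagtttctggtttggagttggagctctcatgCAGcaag
Grik3: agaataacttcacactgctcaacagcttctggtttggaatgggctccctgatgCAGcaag
Grik4: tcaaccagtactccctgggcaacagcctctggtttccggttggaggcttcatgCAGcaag
Grik5: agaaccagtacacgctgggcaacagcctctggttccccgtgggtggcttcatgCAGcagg
Grid1: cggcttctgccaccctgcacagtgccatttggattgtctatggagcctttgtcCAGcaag
The windows lie in coding exons of the canonical transcripts. They are at chr16:87737426-87737485 for Grik1 (minus strand, exon 12), chr10:49120421-49120480 for Grik2 (minus, exon 13) and chr4:125584947-125585006 for Grik3 (plus, exon 12). Those of the others are at chr9:42458915-42458974 for Grik4 (minus, exon 16), chr7:24721918-24721977 for Grik5 (minus, exon 15) and chr14:35172294-35172353 for Grid1 (plus, exon 11). Grik1 and Grik2 were identical at 57 of the 60 bases (95%) and Grik4 and Grik5 at 51 (85%). Grik3 was further from its own group, matching Grik1 and Grik2 at 45 bases each (75%). Between Grik1 to Grik3 on the one hand and Grik4 and Grik5 on the other, identity was 61.7% to 68.3%, and Grid1 matched the kainate receptor genes at 48.3% to 53.3% of bases. The codon was followed by 4 bases of its exon in Grik1, Grik2, Grik3 and Grid1, and by 56 bases in Grik4 and Grik5. Counts per gene do not measure editing at this codon.

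The comparison asked how the transcripts of these receptors differ between 6m and 24m brains. Of the 6 genes, 2 were called higher at 24m (Grik2 and Grik3) and 0 lower by edgeR. A call needed an adjusted p (Benjamini-Hochberg, all genes) no higher than 0.05 together with a log2 fold change, of either sign, that reached 0.58. Over all 16730 genes tested, 25.3% were called higher and 18.3% lower, 43.6% in all. An adjusted p of at most 0.05 alone was reached by 3 of the 6 genes, Grik2, Grik3 and Grik4, against 62.6% of all genes. The libraries of both ages did not overlap in those 3 genes, against 55.2% of all genes. With 6 genes, these counts lie near the background, and the median log2 fold change was 0.32 over the 6 genes and -0.0034 over all genes. In whole hemispheres, fewer cells of a type and less RNA per cell cannot be told apart.

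Library totals were 63460940 to 74513571 counts at 6m and 72936345 to 103462414 at 24m. The deepest library, 24m replicate 1, stood apart from the other 24m libraries. Its mean Spearman rho over tested genes was 0.980 with them and 0.978 with the 6m libraries, whereas the other 24m libraries had means of 0.986 to 0.992 within their age, this library included. Without it the log2 fold changes were 0.21 for Grik1, 0.82 for Grik2, -0.50 for Grik4 and -0.16 for Grik5, and no call of these genes changed, while Grik3 and Grid1 are given with and without it in their own accounts. Brain identity of the tissue was checked with markers. All 9 neuronal markers were detected, with summed levels of 3944 to 4356 CPM (counts scaled to 1e+06 per library with TMM factors) at 6m and 4469 to 4731 at 24m. Summed levels of 3 liver markers were 1.13 to 1.84 and 0.608 to 1.35 CPM. Those of 3 muscle markers were higher, 21.9 to 24.5 CPM at 6m and 11.5 to 15.1 CPM at 24m, without overlap and with 2 called lower, and most of that sum was Acta1 (20.5 and 11.4 CPM). Whether this bears on the receptor genes was not tested.

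**Figure D1:**
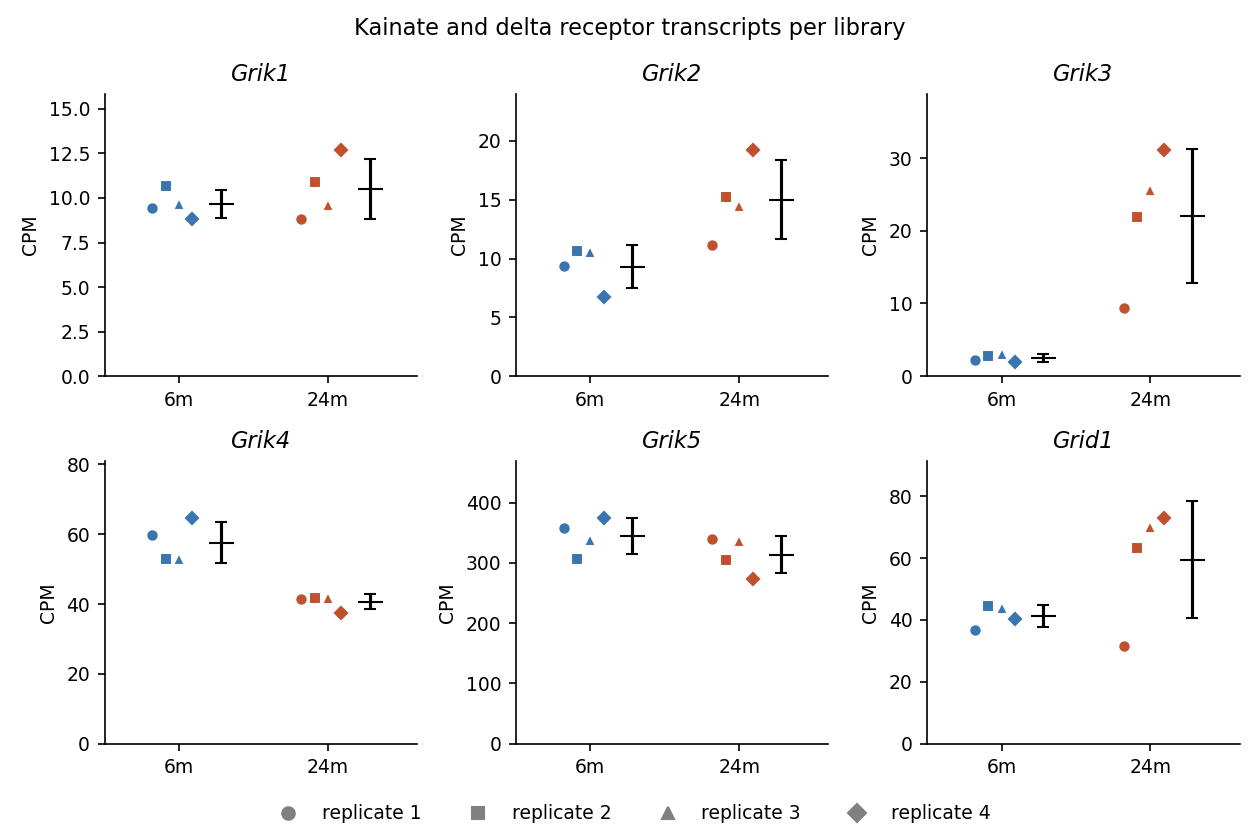
CPM (vertical axis, linear from 0, a separate scale per gene) of the 6 receptor genes in each library of 6m and 24m; each point is a library, symbols mark replicate numbers, and the bar beside each group gives mean and SD. All 4 libraries of 24m lay above those of 6m for Grik2 and Grik3 and below them for Grik4, while the ages overlapped for Grik1, Grik5 and Grid1.

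Grik3 (ENSMUSG00000001985, chr4:125384202-125607966, plus strand), which encodes the low-affinity subunit GluK3, showed the largest difference of the 6 genes. Its level was 2.18, 2.74, 3.07 and 1.92 CPM in 6m replicates 1 to 4, from 127 to 194 counts per library. In 24m replicates 1 to 4 it was 9.41, 21.9, 25.6 and 31.1 CPM, from 975 to 2714 counts. The lowest 24m library, replicate 1, was still above the highest 6m library, and the other 24m libraries were at least 21.9 CPM. The means were 2.48 ± 0.522 and 22.01 ± 9.21 CPM (SD, n = 4 each). On the log2 scale the difference was 3.15 ± 0.34 (SE), or 8.88-fold (edgeR adjusted p = 9.29e-05). Without 24m replicate 1 the log2 fold change of Grik3 was 3.41. The gene passed both thresholds under all 21 alternatives tried, with log2 fold changes of 2.71 to 3.41 and adjusted p of 1.41e-20 to 0.000842. Grik3 is a gene that the study itself named on these samples, so its size here is not independent evidence.

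Grik2 (ENSMUSG00000056073, chr10:48970929-49664880, minus strand) encodes GluK2, the subunit of many kainate receptors at mossy fibre synapses of the hippocampus. The 6m libraries had 9.37, 10.7, 10.5 and 6.73 CPM, and the 24m libraries 11.1, 15.2, 14.5 and 19.2 CPM, both in the order of replicates. The ages did not overlap, but the lowest 24m library and the highest 6m library differed by less than the SD of either age, 1.82 CPM at 6m and 3.32 CPM at 24m. Grik2 rose 1.61-fold, or by 0.69 ± 0.19 on the log2 scale (edgeR adjusted p = 0.0108). Grik2 was less firm than Grik3. Without 6m replicate 4 or 24m replicate 4 its log2 fold change was 0.56 and 0.55, under the fold threshold, and the adjusted p was 0.0267 in both cases. With the trend of each library over exonic length removed it was 0.16 (adjusted p = 0.248), with the GC trend removed 0.46 (0.00289), and with both removed 0.04 (0.746). Grik2 lay at the 97.0 percentile of tested genes in exonic length (16828 bases) and at the 1.27 percentile in GC content (38.0%).

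Grik1 (ENSMUSG00000022935, chr16:87692788-88087153, minus strand), which encodes GluK1, did not pass the test. Its values were 9.46, 10.7, 9.64 and 8.81 CPM at 6m and 8.81, 10.9, 9.59 and 12.7 CPM at 24m. The lowest values of both ages were alike, and only 24m replicates 2 and 4 exceeded every 6m library. The log2 fold change was 0.12 ± 0.13 with a 95% confidence interval of -0.18 to 0.42 (edgeR adjusted p = 0.449). Over the fits without a library it was 0.02 (without 24m replicate 4) to 0.21 (without 24m replicate 1). Its sign changed with the processing, to -0.01 with the length or the GC trend removed and to -0.17 when DESeq2 was run on quantile-normalized counts.

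Among the high-affinity subunits, Grik4 (ENSMUSG00000032017, chr9:42429431-42856154, minus strand) encodes GluK4, a subunit known from hippocampal CA3 neurons. It had 59.9, 52.95, 52.9 and 64.8 CPM in the 6m libraries and 41.4, 41.9, 41.9 and 37.4 CPM in the 24m libraries. Every 24m library was below every 6m library, and 24m replicate 1 lay with the rest of its age. With a log2 fold change of -0.50 ± 0.09, a level 0.705 times that of 6m, Grik4 met the threshold on edgeR's adjusted p (0.00126) and missed the one on size. The adjusted p was at most 0.00966 under all 21 alternatives, and the log2 fold change of Grik4 ran from -0.82 with the length trend removed, which passes the fold threshold, to -0.28 with library totals alone.

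Grik5 (ENSMUSG00000003378, chr7:24709269-24772708, minus strand), for the high-affinity subunit GluK5, was the most abundant of the 6 transcripts. Its level was 358, 306, 338 and 375 CPM at 6m and 339, 305, 336 and 274 CPM at 24m. Only 24m replicates 2 and 4 were below every 6m library. The log2 fold change was -0.14 ± 0.10 with a 95% confidence interval of -0.36 to 0.09 (edgeR adjusted p = 0.255). Over the fits without a library it was -0.19 (without 6m replicate 2) to -0.08 (without 24m replicate 4), and -0.09 without 6m replicate 4. The direction of Grik5 depended on the processing. It was 0.08 with library totals alone, 0.08 when DESeq2 was run on quantile-normalized counts, and 0.29 with the GC trend removed (adjusted p = 0.00458), but -0.43 with the length trend removed (0.0156). Grik5 stood at the 99.1 percentile of tested genes in GC content (63.9%). Zfp574 overlaps one end of Grik5 on the other strand, with means of 67.1 CPM (6m) and 64.1 CPM (24m). How the counting treated strand is not given in the sources used here, so reads of the overlap may have been assigned to either gene.

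Grid1 (ENSMUSG00000041078, chr14:34541769-35305336, plus strand), which encodes the delta receptor GluD1 of forebrain synapses, was near the threshold and depended on 1 library and on the method. It had 36.9, 44.4, 43.9 and 40.3 CPM at 6m and 31.7, 63.4, 69.9 and 73.1 CPM at 24m. The value of 24m replicate 1 was the lowest of all 8 libraries, and the other 3 aged libraries were above every 6m library. With all libraries the log2 fold change was 0.53 ± 0.22, with a 95% confidence interval of 0.03 to 1.03, and did not pass (edgeR adjusted p = 0.0635). Without 24m replicate 1 it was 0.75 and passed both thresholds (adjusted p = 2.08e-05), so that 3 of the 6 genes were then called. In that fit 8305 of all 16730 genes tested were called, against 7295 with all libraries. With all 8 libraries, Grid1 was also called with library totals alone (0.76, adjusted p = 0.0284). Its adjusted p, though not its fold change, was past the threshold with DESeq2 on raw (0.52, 0.0481) and on quantile-normalized counts (0.55, 0.0365). Leaving out any other library gave Grid1 an adjusted p of 0.0885 to 0.154. Whether that animal or that library differs was not tested.

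**Figure D2:**
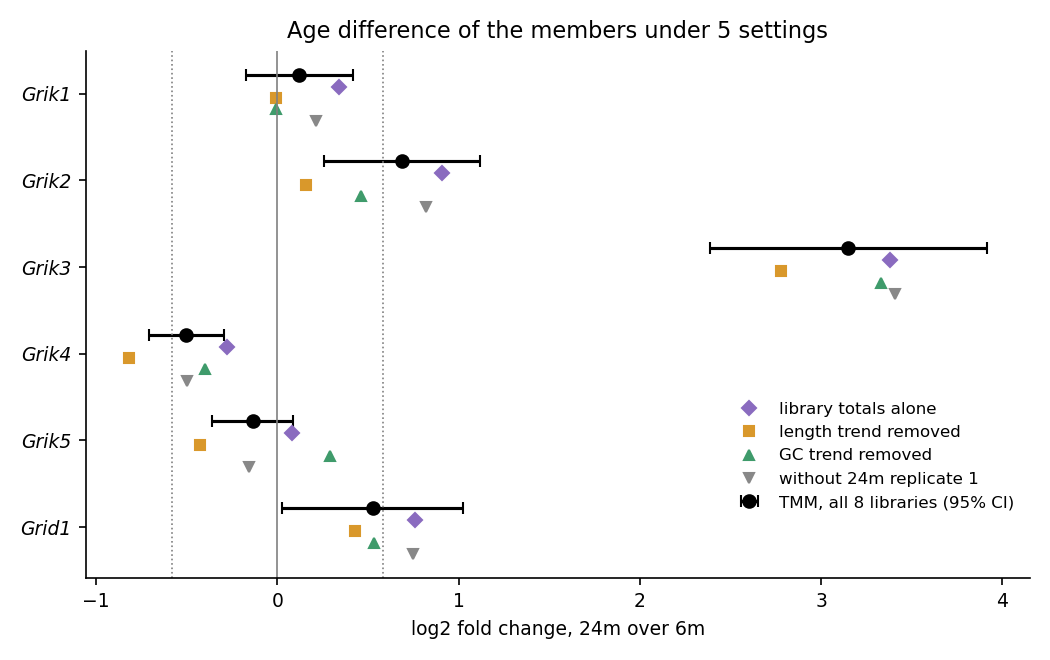
Log2 fold change of 24m over 6m (horizontal axis) for each receptor gene: black points with 95% confidence intervals are the TMM-scaled edgeR fit of all 8 libraries, coloured symbols 4 alternatives, and dotted lines the fold threshold of 0.58 in either direction. Grik3 stayed between 2.78 and 3.41 in these settings, Grik5 lay on both sides of 0, and Grik2 moved from 0.69 to 0.16 with the length trend removed.

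To compare the genes with each other, levels were divided by exonic length (CPM per kilobase of the union of exons). At 6m the order was Grik5 (37.0 ± 3.21), Grid1 (6.61 ± 0.561), Grik4 (6.00 ± 0.605), Grik1 (1.44 ± 0.116), Grik2 (0.554 ± 0.108) and Grik3 (0.245 ± 0.0516). Ranges over libraries overlapped only between the neighbours Grid1 and Grik4, at 5.89 to 7.10 and 5.50 to 6.74. At 24m the order was Grik5 (33.7 ± 3.30), Grid1 (9.52 ± 3.04), Grik4 (4.23 ± 0.225), Grik3 (2.18 ± 0.910), Grik1 (1.56 ± 0.252) and Grik2 (0.892 ± 0.197). With these lengths Grik3 was last at 6m and next after Grik4 at 24m, although its range of 0.930 to 3.08 at 24m overlapped those of Grik1 and Grik2, and in 24m replicate 1 it was below Grik1. The order of near neighbours depended on the length used. The length of the canonical transcript, also used for the shares, was applied to this order after seeing the data. With it, Grik4 was above Grid1 at 6m (9.22 ± 0.930 against 6.87 ± 0.583 CPM per kilobase). At 24m Grik3 then came after Grik1, at 2.38 ± 0.994 against 2.94 ± 0.474 for Grik1, above Grik1 in replicate 3 and below it in the other 3 libraries. Under both lengths Grik5 was the highest at both ages, and Grik3 the lowest at 6m but above Grik2 in its 24m mean.

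The share of each gene in the summed per-length level of Grik1 to Grik5 does not depend on the scaling of a library. The sum itself was 40.9 to 49.0 CPM per kilobase at 6m and 39.4 to 45.3 at 24m. Of that sum Grik3 held 0.459%, 0.663%, 0.686% and 0.388% in the 6m libraries, by replicate number, but 2.13%, 5.18%, 5.58% and 7.80% in the 24m libraries. Grik4 held 12.4% to 13.8% at 6m and 9.61% to 10.4% at 24m, so neither gene overlapped between ages. Grik5 held most of the sum, 81.8 ± 0.899% at 6m and 79.1 ± 3.66% at 24m (SD, n = 4), with values of 80.4% to 82.4% and 74.6% to 83.5% that overlapped. The 3 low-affinity genes together made up 3.88% to 6.10% at 6m and 6.65% to 15.5% at 24m. Shares of RNA are not shares of receptor protein. With the length of the canonical transcript in place of all exons, Grik5 held 84.5% and 83.0%, and the difference in the share of Grik3 was 2.73 in place of 4.63 percentage points.

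**Figure D3:**
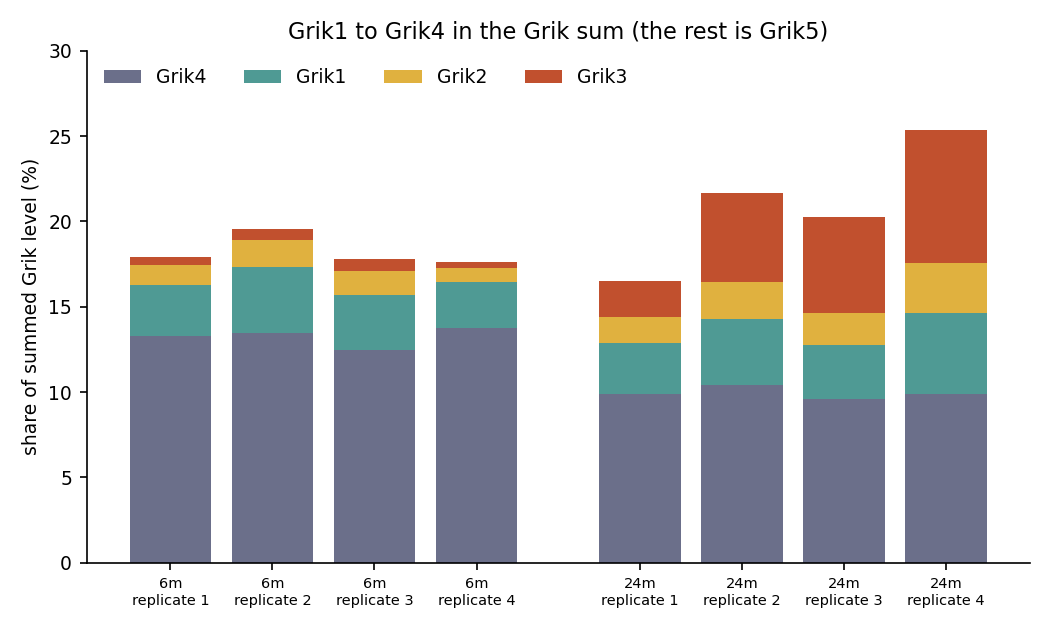
Stacked bars give the share (%) of Grik1, Grik2, Grik3 and Grik4 in the summed per-length level of the 5 Grik genes in each library; the axis ends at 30% and the remainder up to 100% is Grik5. The Grik3 segment was at most 0.686% in the 6m libraries and 2.13% to 7.80% in the 24m libraries, while that of Grik4 was smaller in every 24m library.

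Members differed in gene structure. The genomic span was 63440 bases for Grik5 and 223765 to 763568 bases for the others, which placed Grik5 at the 76.4 percentile of tested genes and the rest at the 94.9 percentile or above. Exonic length was 6258 (Grid1) to 16828 bases (Grik2). No listed gene overlaps a member other than Grik5, though annotated genes that are not in the table overlap each of the others. As a description over 8 libraries, with the age difference included, log2 CPM of Grik3 correlated with Grik2 at a Pearson r of 0.907 and with Grik4 at -0.943, values that were 0.846 and -0.527 once the mean of each age was subtracted. Grik1 and Grik5 correlated at -0.942, and at -0.951 after the same subtraction. The points share libraries and scaling factors.

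For each member, the genes with the most similar profile of log2 CPM over the 8 libraries were sought among the 13970 tested genes that averaged 1 CPM or more. For Grik3 they were Tnfrsf19 (Pearson r = 0.999) and Zfp609 (0.999), whose log2 fold changes were 1.253 and 2.16. For Grik2 they were Uso1 and Wdr3 (both 0.996), and for Grik4 Ramp2 (0.992) and Cd81 (0.991). Zfp811 (0.974) and Phospho2 (0.954) were closest to Grik1, Adgre5 (0.989) and Acvrl1 (0.980) to Grik5, and Slc25a12 and Marchf4 (both 0.994) to Grid1. These coefficients are the highest of 13970 over 8 points that share age and library, and are given as a description.

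A list of 27 genes whose products bind, edit or traffic these receptors was examined next. It was chosen with earlier results of these data known, so its shares of called genes are a description. Klhl17 is not analysed here. Of the other 26, 13 were called higher and 2 lower (50.0% and 7.69%), beside 25.3% and 18.3% of all genes, and their median log2 fold change was 0.65. Both auxiliary subunits rose. Neto2, which slows the gating of kainate receptors, had 2.71 to 3.57 CPM at 6m and 3.87, 8.89, 6.88 and 10.1 CPM in 24m replicates 1 to 4, which is 1.23 ± 0.26 on the log2 scale (edgeR adjusted p = 0.00288). Neto1 changed by 0.78 ± 0.23 (adjusted p = 0.0135), with overlapping ages, since 24m replicate 1 had 10.5 CPM against 8.28 to 11.9 CPM at 6m. Neto1 lost its call in 5 of the 21 alternatives, with values of 0.23 with both trends removed, 0.36 and 0.37 with the length trend removed with and without the replicate block, and 0.53 both with the GC trend removed and on quantile-normalized counts. Neto2 was called in all of them.

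Of the bridging ligands of these receptors, Cbln3 and Cbln2 were called higher, with log2 fold changes of 1.69 ± 0.17 and 0.77 ± 0.19, and Cbln1 and Cbln4 were not called, at 0.25 ± 0.19 and 0.21 ± 0.17 (adjusted p = 0.271 and 0.306). With both trends removed Cbln1 was called higher (0.64, adjusted p = 0.00128), and on quantile-normalized counts Cbln4 was at -0.11. Cbln2 lost its call in 3 of 21 alternatives, DESeq2 on quantile-normalized counts (0.43) and the GC trend removed alone or with the length trend (both 0.57). Of the C1q-like proteins, which bind kainate receptors or other synaptic receptors, 2 were called lower. C1ql3 averaged 53.5 ± 3.90 CPM at 6m and 29.4 ± 3.07 CPM at 24m and fell by 0.86 ± 0.10 on the log2 scale (adjusted p = 0.000127), a call kept in all 21 alternatives. C1ql1 changed by -0.74 ± 0.16 (adjusted p = 0.00248), but was not called in 5 alternatives. These were library totals alone (-0.53), the GC trend removed (-0.25), the length trend removed with and without the replicate block (both -0.22), and both trends removed (-0.06). C1ql2 had -0.35 ± 0.13 (0.039), short of the fold threshold, and 0.19 with the length trend removed.

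Of the partners that act across the synapse, Elfn1, a postsynaptic adhesion protein that recruits presynaptic receptors, was called higher (0.82 ± 0.24, adjusted p = 0.0147). The ages overlapped for Elfn1, since 24m replicate 1 had 11.2 CPM against 9.36 to 13.45 CPM at 6m. The presynaptic neurexins Nrxn2 and Nrxn3 were not called, with log2 fold changes of 0.46 ± 0.08 and 0.53 ± 0.25. Like Grid1, Nrxn3 passed without 24m replicate 1 (0.75, edgeR adjusted p = 0.000346) and with library totals alone (0.76, 0.0398). With the length and GC trends removed Nrxn3 was at -0.004 (adjusted p = 0.982), whereas Grid1 was at 0.44. Nrxn2 passed the adjusted p (0.000853) and was called in 3 alternatives, library totals alone (0.68), DESeq2 on quantile-normalized counts (0.82) and the GC trend removed (0.84). Of 8 scaffold and trafficking genes, 5 (62.5%, beside 25.3% of all genes) were called higher, Dlg1, Dlg3, Cask, Grid2ip and Snx27, with log2 fold changes of 0.78 to 1.84. Pick1 had -0.47 ± 0.08 (adjusted p = 0.000607), with every 24m library below every 6m library but short of the fold threshold, which it passed with the length trend removed (-0.72). Grip1 had -0.18 ± 0.12 and did not pass (adjusted p = 0.231). Dlg1 lost its call with the length trend removed (0.54) or with both trends removed (0.46), and Grid2ip with DESeq2 on quantile-normalized counts (0.51), whereas Dlg3, Cask and Snx27 kept theirs in all 21 alternatives. Dlg3, for the scaffold SAP102, had 21.0 ± 4.98 CPM at 6m and 74.2 ± 19.0 CPM at 24m (adjusted p = 0.000145). Dlg4, for PSD-95, was the most abundant of the list at 966 ± 55.4 and 1039 ± 81.9 CPM and did not pass (0.11 ± 0.09, adjusted p = 0.332).

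Both RNA editing enzymes rose. Adarb1, which encodes the deaminase ADAR2 that edits glutamate receptor transcripts, averaged 24.3 ± 3.73 CPM at 6m and 88.2 ± 25.3 CPM at 24m and rose by 1.86 ± 0.21 on the log2 scale (edgeR adjusted p = 0.000115). In the 24m libraries Adarb1 had 55.6, 88.3, 91.5 and 117 CPM against 19.9 to 28.0 CPM at 6m, so the ages were far apart even in 24m replicate 1. The other deaminase gene, Adar, changed by 1.22 ± 0.09 (adjusted p = 2.42e-05), from 79.4 ± 4.76 to 185 ± 18.5 CPM. Both were called under all 21 alternatives.

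**Figure D4:**
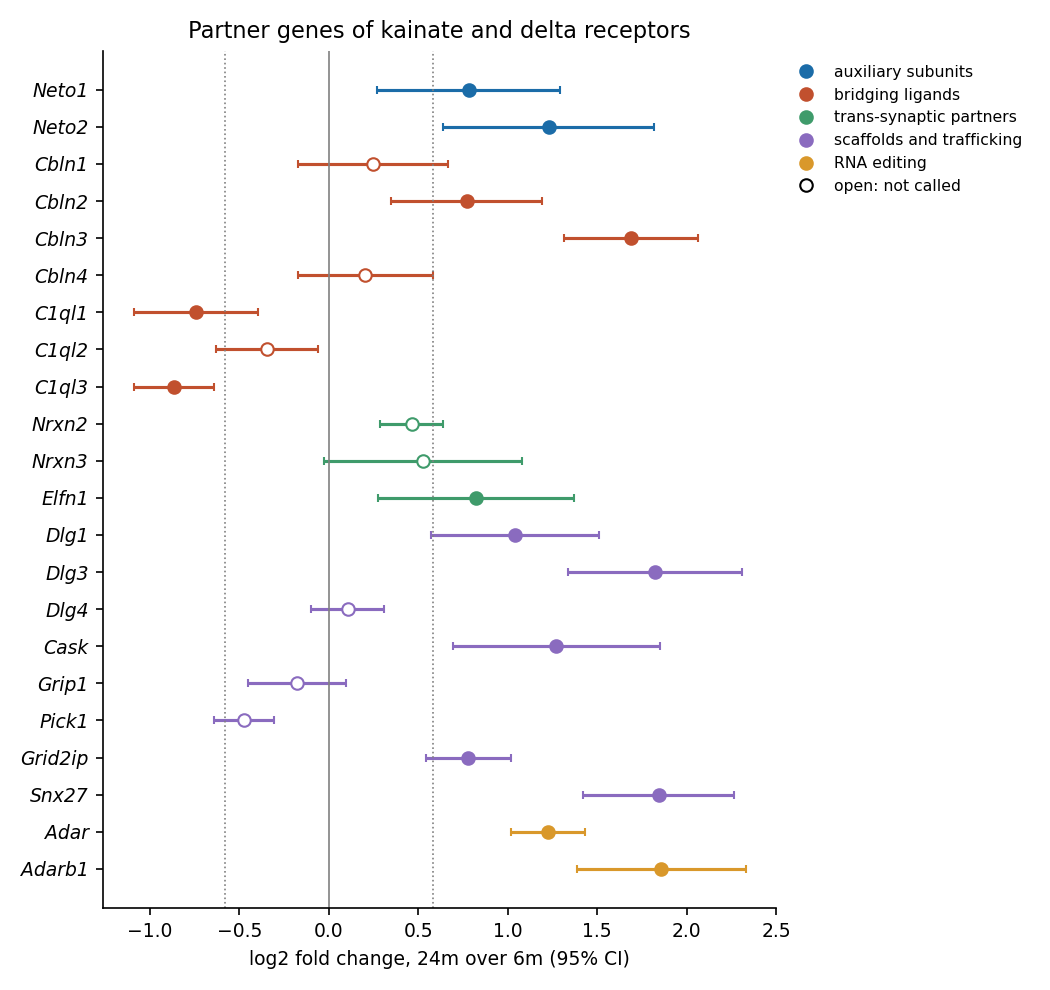
Log2 fold change of 24m over 6m with 95% confidence intervals (horizontal axis) for 22 partner genes, coloured by role, with filled symbols for called genes and dotted lines at the fold threshold of 0.58 in either direction. Adarb1, Snx27, Dlg3 and Cbln3 lay above 1.6, and C1ql1 and C1ql3 were the genes called lower.

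Levels of markers of brain cell types and regions also differed between ages, and their part in the results was not tested. Summed levels did not overlap for the 5 hippocampal markers (115 to 141 CPM at 6m, 172 to 221 at 24m, 3 called higher and 1 lower) and the 5 cortical markers (65.6 to 82.1 and 93.1 to 170 CPM, 3 higher). They did not overlap for the 4 markers of oligodendrocyte precursors (38.7 to 41.7 and 53.7 to 82.1 CPM, 2 higher) or the 5 of thalamus (114 to 122 and 130 to 142 CPM, 1 higher). Those of 5 cerebellar markers overlapped, at 292 to 522 and 313 to 498 CPM with 2 called higher. Summed levels overlapped as well for astrocytes (4 of 6 called higher), microglia (2 of 6), oligodendrocytes (1 of 6), endothelium (1 higher and 1 lower of 5), choroid plexus (1 of 4), striatum (2 of 5) and olfactory bulb (2 of 4 lower). The 9 neuronal markers, whose sums are given above, had 3 called higher and 1 lower. No marker was at 0 in all libraries.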

How the data were processed

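The deposited table gives whole-number counts per Ensembl gene and library, without normalization or pooling. By their own account, the authors trimmed reads with Trim Galore 0.4.11, aligned them to GRCm39 with HISAT2 2.1.0 and counted with featureCounts. Strand setting and treatment of multimapping reads were not given in the sources used here, which touches close paralogs such as Grik1 and Grik2. The GENCODE annotation of the same assembly, a later release, matched 22281 of 22430 genes, and the other 149 held 0.312% of counts.

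A gene was tested when over 5 counts were found in 4 or more of the 8 libraries. edgeR 4.0.16, run in R 4.3.3, gave quasi-likelihood F tests with TMM scaling and a single term, age. The thresholds of the study were kept for calls (adjusted p 0.05, log2 fold change 0.58). Log2 CPM used a prior count of 2. Standard errors were derived from the F statistic. The fit was tested on simulated data. Replicate pairs of an age differed by more than sampling noise (chi-square of 8.43 to 433 per degree of freedom). Alternatives were other scaling factors, DESeq2 1.42.0 (also on quantile-normalized counts), limma-voom 3.58.1, other filters, each library left out, the replicate number as a block, and length or GC trends removed with a smoothed offset. Named were all members, genes of the partner list (4 of them are counted with the list but not reported here), and the 2 most similar genes per member. Members, lists and tests were chosen with earlier results of these data known.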

Additional observations from a re-analysis of the deposited data

Results flagged for a closer look

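In the 24m libraries, the lowest level of Grik4 was 37.4 CPM in replicate 4, set apart from 41.4 to 41.9 CPM in the other 3, with a gap that was 0.892 of the range. In the 6m libraries, the lowest share of Grik5 in the Grik sum was 80.4% in replicate 2, against 82.1% to 82.4% in the other 3, a gap of 0.853 of the range. Both gaps exceed Dixon's critical value for groups of 4. Over 22 groups examined, chance alone marks about 1 in 20 groups.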

How the results depend on the processing

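Over 21 alternatives Grik3 kept its call. Grik2 lost it with DESeq2 on quantile-normalized counts (0.42), with the length trend removed (0.16, and 0.17 with the replicate block), with the GC trend removed (0.46) and with both (0.04). Over the fits without a library its log2 fold change was 0.55 to 0.82, under the threshold without 6m replicate 4 or 24m replicate 4. Grik4 passed the fold threshold with the length trend removed (-0.82, also with the replicate block) and with both trends removed (-0.76). Grid1 was called with library totals alone (0.76), and over the fits without a library it ranged from 0.41 to 0.75. Grik1 changed sign with DESeq2 on quantile-normalized counts (-0.17), with the length trend removed (-0.01, and -0.02 with the replicate block), with the GC trend removed (-0.01) and with both (-0.07). Grik5 changed sign with library totals alone (0.08), quantile-normalized counts (0.08) and the GC trend removed (0.29). The number of members called was 1 with quantile-normalized counts or the GC trend removed and 1 to 3 without a library. Of all 16730 genes tested, 7464 and 7022 were called in the first 2 settings and 6467 to 8305 without a library, against 7295 in the main fit. The cause was not tested. The age difference in shares of the Grik sum moved for Grik2 without length correction (1.54 percentage points in place of 0.877), and with canonical lengths for Grik3 (2.73 in place of 4.63) and Grik4 (-2.56 in place of -3.29). That of Grik5, -2.71 points, was -1.23 without 24m replicate 4 and -4.18 without 24m replicate 1, and that of Grik1, 0.501 points, was 0.139 without 24m replicate 4 and 0.325 without 6m replicate 4. Partner genes called numbered 13 to 16.

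Library totals alone moved the median gene to a log2 fold change of 0.21, so its values are to be read against that shift, and 75.7% of called genes were then higher, against 58.1% with TMM and 47.9% with quantile-normalized counts. The labels do not say whether replicate numbers pair the animals. Deviations of same-numbered libraries from their age means correlated at -0.348 to 0.271, which cannot settle it with 4 libraries per age. With the replicate block 7242 genes were called against 7295, and the calls of the 6 members did not change. Where counts were low, at 127 to 194 for Grik3 in the 6m libraries, counting error adds to the spread between animals.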
